A study of Mus musculus with 4 samples.

Results

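Lectin-like and paired immune receptors are surface proteins with which myeloid cells and natural killer (NK) cells read sugars, lipids and host proteins. The genes described here were chosen by symbol alone: C-type lectins (Clec followed by a digit), Siglecs, the LILR and PIR receptors, PILR, TREM, killer cell lectin-like receptors (Klr), SIRP and LAIR. Of 18193 genes that had a probe set naming them alone, 61 carried such a symbol, and where several probe sets named a gene, the one brightest on average over the 4 arrays stands for it. The symbols take in a few genes that are not receptors, such as the secreted Clec11a.

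The arrays compared 2 samples of bone marrow from mice with MN1 leukemia with 2 samples of Gr1/Mac1 cells, mature myeloid marrow cells of healthy mice that carry the granulocyte antigen Gr1 and the integrin CD11b (Mac1). All mice were C57BL/6J. The labels give both groups 1 treatment text, and the steps that follow can apply only to the leukemic samples. For the leukemia, marrow was taken 4 days after 150 mg/kg fluorouracil, cultured for 48 hours with interleukin-6, interleukin-3 and stem cell factor, infected with a retrovirus carrying MN1 and GFP-sorted. It was then injected into recipients irradiated with 750 cGy, together with normal helper marrow, so the leukemic marrow can hold cells of the host and of the helper graft. The labels call the arrays of a group biological replicates. They give no ages, and no array of normal immature cells was analysed here, so leukemia and immaturity cannot be told apart.

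Many of these receptors come in pairs with nearly the same outer part and opposite inner parts. An inhibitory partner carries a tyrosine motif called ITIM in its own tail and recruits phosphatases, whereas an activating partner has a short tail and signals through an adaptor with an ITAM motif, such as the proteins made from Tyrobp and Fcer1g. In granulocytes and monocytes they set how strongly a cell answers fungi, mycobacteria, damaged tissue and the cell's own marks of self.

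Most of the receptors bright enough to test were lower in leukemic marrow than in Gr1/Mac1 cells. Of the 61 genes, 38 passed the filter on low signals, and 25 of these were called lower, 2 higher and 11 neither way (limma, Benjamini-Hochberg adjusted p threshold 0.05 over 12378 genes, of which 43.4% were called either way). That is 65.8% called lower, against 15.9% of all tested genes, and 5.26% called higher, against 27.5% of all tested genes. The median log2 fold change, leukemic minus Gr1/Mac1 on the log2(signal + 16) scale, was -2.21 for the 38 receptors and 0.28 for all tested genes. The arrays of the groups did not overlap in 30 of the 38, and in 74.2% of all tested genes. The filter keeps a gene that is bright in 1 group alone, so these counts describe the genes that passed and are no measure of all 61. With no filter, 24 of the 61 were lower, 3 were higher and the median was -0.62. In bulk RNA, fewer cells that carry a receptor and less of its RNA per cell cannot be told apart.

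**Figure D1:**
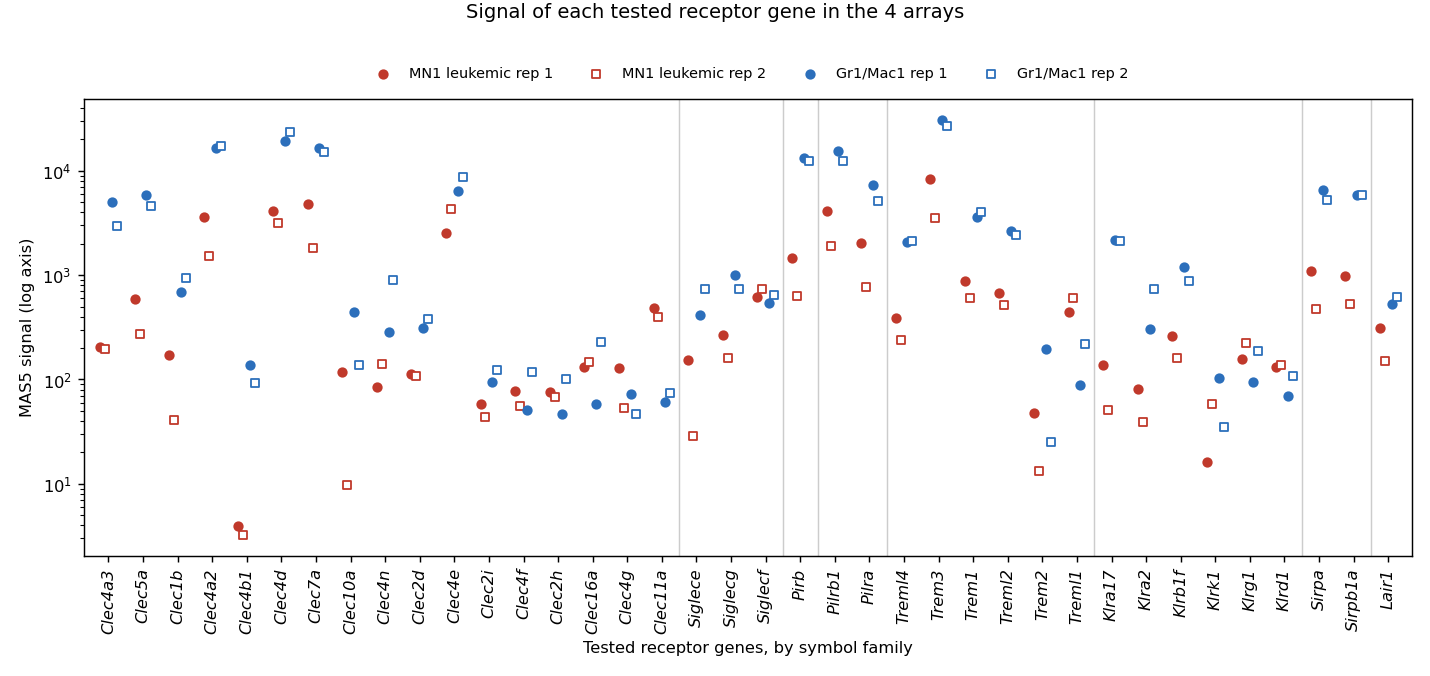
MAS5 signal (linear array intensity, drawn on a log axis) of the 38 tested receptor genes, grouped by symbol family and ordered by fold change within it; red points are the 2 MN1 leukemic arrays and blue points the 2 Gr1/Mac1 arrays, with replicate 1 filled and replicate 2 open. In 25 genes both leukemic arrays lie below both Gr1/Mac1 arrays and the call is lower, and in Clec11a and Treml1 they lie above.

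Some properties of the arrays bear on every value. Each array had been scaled to a trimmed mean of 500.003 or 500.004 before deposit. The ratio of 3′ to 5′ signal of the beta-actin control came to 3.28 and 3.09 in leukemic marrow, against 1.32 and 1.39 in Gr1/Mac1 cells, and the part of this RNA difference in the results was not tested. Gr1/Mac1 replicate 2 stood apart in sex-linked genes, with Xist, the RNA of the inactive X, at 114 and the Y-linked Eif2s3y at 4409, whereas Xist read 14512 and 19642 in the leukemic arrays and 7138 in Gr1/Mac1 replicate 1. Without that array 21 receptors were called lower and 2 higher. With each group scaled to its hybridization controls, RNAs added before hybridization, the median of all genes moved to -1.02. The receptors' median minus that of all genes was -2.49 on the deposited scale and -2.35 under that scaling.

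The 4 largest falls were those of Klra17, Clec4a3, Pirb and Clec5a, and the sequence before their start sites is given here with that of Clec11a, the largest rise. Each run is the 250 bases before the most upstream start in RefSeq (GRCm38.p6), read 5′ to 3′ on the gene's strand. The windows lie at chr6:129876673-129876922 (minus strand) for Klra17, chr6:122952265-122952514 (plus strand) for Clec4a3, chr7:3720383-3720632 (minus strand) for Pirb, chr6:40585806-40586055 (minus strand) for Clec5a and chr7:44306960-44307209 (minus strand) for Clec11a. Capitals mark GAGGAA, a core bound by PU.1 and other ETS factors of myeloid cells, and TTGCNNAA, a form of the C/EBP motif, each on either strand.
Klra17: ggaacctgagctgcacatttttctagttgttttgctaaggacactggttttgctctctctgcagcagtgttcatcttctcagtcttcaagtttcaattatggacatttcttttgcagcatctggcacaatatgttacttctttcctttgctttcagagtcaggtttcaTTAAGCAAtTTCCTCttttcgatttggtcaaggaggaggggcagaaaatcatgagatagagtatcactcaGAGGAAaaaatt
Clec4a3: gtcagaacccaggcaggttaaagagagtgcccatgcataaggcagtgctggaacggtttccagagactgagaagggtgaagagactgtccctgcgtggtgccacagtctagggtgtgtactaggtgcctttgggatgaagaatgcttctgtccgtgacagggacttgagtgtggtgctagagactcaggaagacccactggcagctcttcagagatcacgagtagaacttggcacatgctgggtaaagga
Pirb: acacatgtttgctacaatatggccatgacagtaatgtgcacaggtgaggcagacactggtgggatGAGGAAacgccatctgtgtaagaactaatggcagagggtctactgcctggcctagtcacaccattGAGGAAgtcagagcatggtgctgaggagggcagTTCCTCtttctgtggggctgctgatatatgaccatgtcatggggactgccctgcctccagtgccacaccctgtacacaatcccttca
Clec5a: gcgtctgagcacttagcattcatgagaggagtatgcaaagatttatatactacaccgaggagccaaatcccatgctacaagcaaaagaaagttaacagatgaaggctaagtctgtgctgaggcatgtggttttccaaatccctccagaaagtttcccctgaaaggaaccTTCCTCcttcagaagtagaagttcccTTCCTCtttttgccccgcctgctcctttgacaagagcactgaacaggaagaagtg
Clec11a: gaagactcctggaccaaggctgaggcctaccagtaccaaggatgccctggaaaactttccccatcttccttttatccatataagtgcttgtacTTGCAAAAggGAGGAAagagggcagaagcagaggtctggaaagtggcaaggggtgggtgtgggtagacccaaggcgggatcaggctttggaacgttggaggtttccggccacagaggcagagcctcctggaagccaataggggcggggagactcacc
Pirb held GAGGAA 3 times, Klra17 and Clec5a 2 times each and Clec11a 1 time, while neither motif is in the Clec4a3 window. TTGCNNAA was found 1 time in Klra17 and 1 time in Clec11a, and no match overlapped a match of the other motif. A RefSeq window was at hand for 50 of the 61 genes and for 21 of the 25 that were lower. GAGGAA was in 14 of those 21 windows (66.7%) and in 27 of the 50 (54.0%), against 23.1% of the windows of 27025 genes. TTGCNNAA was in 6 of the 21 (28.6%) and in 13 of the 50 (26.0%), against 9.55% of all windows. TGTGGT, a RUNX core, was in 23.8% of the 21 and 14.2% of all windows, and TATAAA, the core of a TATA box, in 19.0% and 13%. Neighbouring genes of these families arose by duplication and share sequence, so their windows are not independent, and a match shows letters only and not a bound site.

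The C-type lectins that sense fungi and mycobacteria were lower in leukemic marrow. Clec7a encodes dectin-1, the receptor for beta-glucan of fungal walls, and read 4758 and 1836 in the leukemic arrays, against 16372 and 15149.6 in the Gr1/Mac1 arrays. Its log2 fold change was -2.41 (SE 0.43, limma adjusted p = 0.0046), a signal 5.3-fold lower. Clec4d, whose protein binds mycobacterial glycolipid together with Mincle, read 4118 and 3164 in leukemic marrow, against 19334 and 23341 in Gr1/Mac1 cells. It was the brightest C-type lectin gene of the set in Gr1/Mac1 cells and fell by 2.55 on the log2 scale (SE 0.26, adjusted p = 7.2e-04). Clec4e, the Mincle gene itself, was lower by less, with -1.16 (SE 0.32, adjusted p = 0.024). That call was lost without leukemic replicate 1 (-0.79, adjusted p = 0.15), without Gr1/Mac1 replicate 2 (-0.94, 0.095) and with quantile normalization (-0.97, 0.056), and its adjusted p ranged from 8.8e-04 to 0.15 over all alternatives. With no variance trend Clec4e did not pass either (limma adjusted p = 0.059). Clec4n, encoding dectin-2, a receptor for fungal mannan, read 84.2 and 139.9 against 283 and 898, leukemic arrays first (-2.07, SE 0.56, adjusted p = 0.023). The Gr1/Mac1 arrays differed widely from each other there, and the call was lost without Gr1/Mac1 replicate 2 (-1.26, adjusted p = 0.074) and without leukemic replicate 1 (-1.75, 0.085; range over alternatives 8.5e-04 to 0.085). Its dimmer probe set gave -3.14 (adjusted p = 0.0086 with each probe set tested).

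Clec5a encodes MDL-1, an activating receptor that pairs with the Tyrobp adaptor. It read 594 and 272 in leukemic marrow, against 5894 and 4576 in Gr1/Mac1 cells, with a log2 fold change of -3.64 (SE 0.38, adjusted p = 8.0e-04) that makes it 12.4-fold lower. Both leukemic arrays were far below both Gr1/Mac1 arrays. Clec1b encodes CLEC-2, the podoplanin receptor best known from platelets. Leukemic marrow gave 172 and 40.7, against 685 and 936 in Gr1/Mac1 cells (-2.98, SE 0.56, adjusted p = 0.0057).

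The DCIR and DCAR genes, which lie side by side on chromosome 6, were lower as well. Clec4a2 encodes DCIR1, an ITIM-bearing inhibitor of myeloid cells, and read 3612 and 1542 in leukemic marrow, against 16657 and 17244 in Gr1/Mac1 cells (-2.84, SE 0.39, adjusted p = 0.0020). Its dimmer probe set gave -2.16 (adjusted p = 0.014 with each probe set tested). Its relative Clec4a3 had the largest fall of the C-type lectins. It read 203 and 194 in leukemic marrow, against 4989 and 2972 in Gr1/Mac1 cells, 18.0-fold lower with a log2 fold change of -4.17 (SE 0.31, adjusted p = 2.9e-04). Clec4b1, the gene of the activating partner DCAR, was near the bottom of the scale in leukemic marrow at 3.92 and 3.23, against 137 and 92.6 in Gr1/Mac1 cells. Its log2 fold change of -2.72 (SE 0.58, adjusted p = 0.0093) depended on the pseudocount and was -4.64 with a pseudocount of 1 and -1.39 with 64.

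Clec2d, whose protein is a ligand of an inhibitory NK receptor, was lower with -1.50 (SE 0.33, adjusted p = 0.011), a call that did not hold when leukemic replicate 1 was left out (-1.53, adjusted p = 0.057) or when leukemic replicate 2 was (-1.48, 0.070; range over alternatives 7.0e-04 to 0.070). The other tested C-type lectin genes did not pass. Clec10a, a galactose-binding lectin gene of macrophages, had a wide spread and a log2 fold change of -2.18 (SE 0.86, adjusted p = 0.080), which passed in 4 of 16 alternatives. These were leaving out leukemic replicate 1 (-3.37, 0.013), equal medians (-2.45, 0.031), scaling to the hybridization controls (-3.20, 0.014) and the replicate block (0.0032), with a range over all alternatives of 0.0032 to 0.35. Clec2i (-0.90), Clec4f (-0.22), Clec2h (0.03), Clec16a (0.21) and Clec4g (0.42) had adjusted p between 0.16 and 0.97. Clec16a, named as a lectin, encodes an intracellular protein of mitophagy.

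Clec11a was the C-type lectin gene that rose. It encodes a secreted growth factor for blood progenitors and bone, and read 483 and 394 in leukemic marrow, against 61.2 and 74.3 in Gr1/Mac1 cells. The log2 fold change was 2.44 (SE 0.35, adjusted p = 0.0022), 5.41-fold higher, and it passed under all 16 alternatives (range of adjusted p 3.5e-04 to 0.023).

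Among the TREM receptors, 4 genes fell and 1 rose. TREM receptors are small immunoglobulin-like proteins, and those made from Trem1 and Trem3 signal through the Tyrobp adaptor and amplify inflammatory responses. Trem3 was the brightest of all 61 genes, at 8383 and 3498 in leukemic marrow and 30578 and 26659 in Gr1/Mac1 cells (-2.39, SE 0.41, adjusted p = 0.0040). Trem1 read 871 and 601 in the leukemic arrays, against 3602 and 3999.6 in the Gr1/Mac1 arrays (-2.37, SE 0.26, adjusted p = 9.8e-04). A further, dimmer probe set of Trem1 gave -3.12 (adjusted p = 0.0034 with each probe set tested). Treml4 read 388 and 238 in leukemic marrow, against 2093 and 2135 in Gr1/Mac1 cells, and Treml2 read 671 and 522, against 2626.5 and 2435. Their log2 fold changes were -2.73 (SE 0.30, adjusted p = 9.0e-04) and -2.06 (SE 0.24, adjusted p = 0.0012). The 3 dimmer probe sets of Treml2 gave smaller values of -1.26, -1.22 and -0.75 (adjusted p = 0.012, 0.033 and 0.26 with each probe set tested), and their average with the brightest was -1.32. In the probe sets standing for these 4 genes the groups were well separated, and the replicates of Gr1/Mac1 cells lay close together.

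Treml1, whose protein TLT-1 sits in platelet granules, went the other way. It read 446 and 605 in leukemic marrow, against 87.6 and 220.3 in Gr1/Mac1 cells, a log2 fold change of 1.77 (SE 0.45, adjusted p = 0.018). The call was lost without leukemic replicate 2 (1.56, adjusted p = 0.11) and with each group scaled to its hybridization controls (0.53, 0.35; range over alternatives 0.0018 to 0.35). Of the platelet and megakaryocyte markers 1 of 6 tested, the integrin gene Itga2b, was called higher. The list summed to 3298 and 2715 in leukemic marrow, against 949 and 937 in Gr1/Mac1 cells, of which Itga2b alone gave 2092 and 1794, against 207 and 233. The other platelet receptor of the set, Clec1b, was lower, as described above. Trem2, a lipid-sensing receptor gene of macrophages and microglia, was dim and did not pass (-1.11, SE 0.87, adjusted p = 0.34).

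In chromosome order the TREM genes run Trem1, Trem3, Treml4, Treml2, Trem2 and Treml1. The first 4 of these neighbours were the ones called lower, and Treml1 at the far end was the one called higher. On chromosome 6, which holds 37 of the 61 genes and 19 of the tested ones, 13 were lower. That is near the share of all 38 tested receptors (65.8%), beside 15.9% of all tested genes. The 6 members from Clec4a3 to Clec4e, with no other member between them, were all called lower in the analysis of all 4 arrays. Further along, Klra17 was called lower between 2 Klr genes too dim to test.

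**Figure D2:**
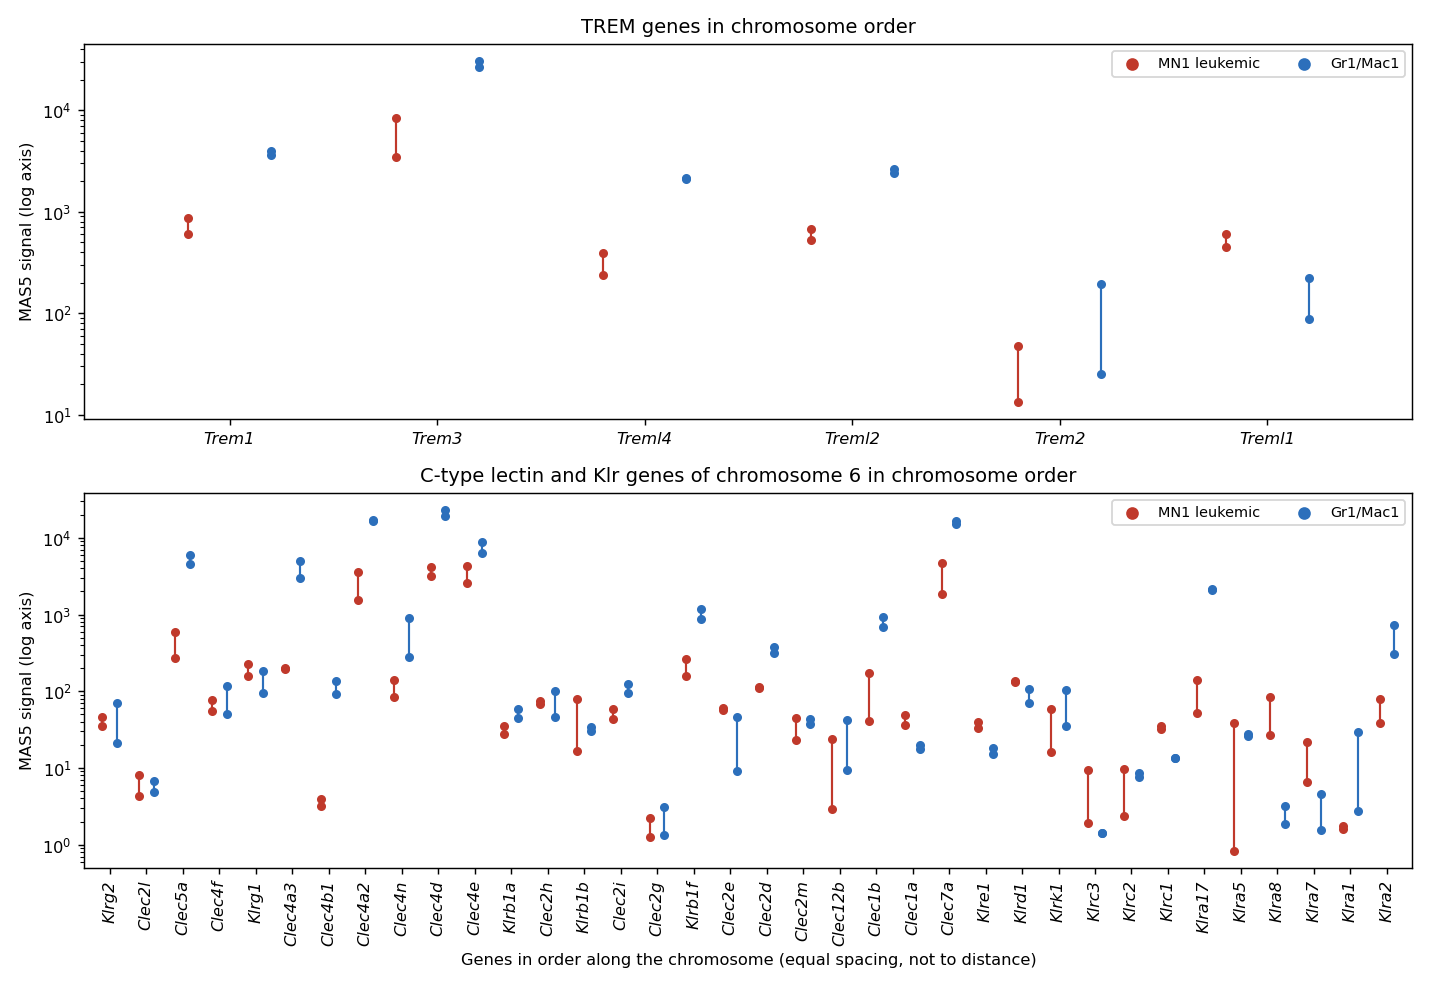
MAS5 signal (log axis) of the TREM genes (upper panel) and of 36 members on chromosome 6 (lower panel) in their order along the chromosome in RefSeq GRCm38.p6, equally spaced and not to distance; red points with a line are the 2 MN1 leukemic arrays and blue points the 2 Gr1/Mac1 arrays. The first 4 TREM genes and the block from Clec4a3 to Clec4e lie lower in leukemic marrow, Treml1 lies higher, and most Klr genes stay under 100 in both groups. Klra16 is left out, since its listed start was taken to be that of an alternate scaffold and gives no place in the order.

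The paired receptors fell on both sides of the pair. PILR receptors bind sialylated proteins, the product of Pilra being inhibitory and that of Pilrb1 activating. Pilra read 2052 and 772 in leukemic marrow, against 7243 and 5097 in Gr1/Mac1 cells (-2.25, SE 0.45, adjusted p = 0.0073). Pilrb1 read 4163 and 1922, against 15552 and 12426 (-2.29, SE 0.38, adjusted p = 0.0035). The log2 fold changes of the inhibitory and the activating gene thus lay closer together than either SE, and the difference between them was not tested.

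SIRP receptors form another such pair. Sirpa encodes the inhibitory receptor for CD47, the signal that keeps phagocytes from engulfing a cell, and Sirpb1a an activating relative. Sirpa read 1103 and 469 in leukemic marrow and 6582 and 5234 in Gr1/Mac1 cells (-3.00, SE 0.40, adjusted p = 0.0017). Its 2 dimmer probe sets gave -2.06 and -1.86 (adjusted p = 0.0069 and 0.0052 with each probe set tested). Sirpb1a read 989.6 and 533 in leukemic marrow, against 5833 and 5828 in Gr1/Mac1 cells (-2.98, SE 0.32, adjusted p = 8.7e-04). A probe set shared by Sirpb1a, Sirpb1b and Sirpb1c, which names no single gene, gave -2.83 (adjusted p = 0.0022), so the Sirpb1 copies were not told apart there.

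Pirb encodes the inhibitory receptor PIR-B, which binds MHC class I on myeloid and B cells. It read 1453 and 632 in leukemic marrow, against 13411 and 12483 in Gr1/Mac1 cells, 13.3-fold lower (-3.73, SE 0.38, adjusted p = 7.7e-04). The activating PIR-A genes had no probe set of their own. The 3 probe sets that name them also name Pirb, so PIR-A was not told apart from Pirb there. These shared probe sets gave log2 fold changes of -4.38, -3.49 and -3.18 (adjusted p = 7.1e-04 to 0.0011 with each probe set tested). A probe set shared by Lilrb4a and Lilr4b, an inhibitory receptor gene and its close copy, read 9022 and 5034 in leukemic marrow, against 36266 and 38778.5 in Gr1/Mac1 cells. It was brighter than any probe set of the 61 genes and gave -2.47 (SE 0.34, adjusted p = 0.0023). Lair1, the gene of an inhibitory collagen receptor, fell by less, with signals of 309.7 and 149 against 525 and 622 (-1.34, SE 0.39, adjusted p = 0.029). The Lair1 call was lost without leukemic replicate 2 (-0.85, adjusted p = 0.21), without Gr1/Mac1 replicate 1 (-1.46, 0.058) or without Gr1/Mac1 replicate 2 (-1.22, 0.10; range over alternatives 0.0015 to 0.21). With no filter and with no variance trend it also just missed the threshold (adjusted p = 0.0501 in both). Of its 2 dimmer probe sets 1 passed (-1.72, adjusted p = 0.036) and the other did not (-1.05, 0.064).

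Siglecs are receptors for sialic acid, most of them inhibitory. Siglece, expressed on mouse neutrophils and monocytes, read 154 and 28.9 in leukemic marrow, against 410.4 and 733 in Gr1/Mac1 cells (-2.69, SE 0.65, adjusted p = 0.015). The spread within each group was wide, and without Gr1/Mac1 replicate 2 the call was lost (-2.29, adjusted p = 0.091; range over alternatives 9.3e-04 to 0.091). Siglecg, best known as an inhibitor of B cells, read 269 and 160.1 against 1004 and 739, leukemic arrays first (-1.97, SE 0.34, adjusted p = 0.0043). Of 4 tested B cell markers none passed with limma. At an unadjusted p under 0.05 were 2, Ms4a1 with -1.80 and Vpreb1 with 1.84. The 6 B cell markers on the array, tested or not, summed to 782 and 562 in the leukemic arrays, against 745 and 462 in the Gr1/Mac1 arrays. Of these sums Cd79b gave 513 and 193, against 430 and 165. Siglecf, the eosinophil Siglec, overlapped between the groups (0.18, SE 0.26, adjusted p = 0.62) and was called lower only under the scaling to hybridization controls among the alternatives run (-1.12, 0.010; range 0.010 to 0.94). Of 3 tested eosinophil markers none passed (limma, and 0 at an unadjusted p under 0.05). The 5 eosinophil markers on the array, tested or not, summed to 1391 and 337 in leukemic marrow, against 3380 and 497 in Gr1/Mac1 cells. Prg2 alone gave 1114 and 210 of these sums, against 2754 and 323. The other 2 Siglec genes were too dim to test.

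Of the 18 Klr genes, 12 were too dim to test, and the 3 that were called had fallen. Klr proteins are receptors of the NK gene complex, and most are found on NK cells and some T cells. Klra17 encodes Ly49Q, an ITIM-bearing member that mouse myeloid cells and plasmacytoid dendritic cells carry. It had the largest fall of all 38 tested genes, reading 139 and 51.5 in leukemic marrow, against 2182 and 2118 in Gr1/Mac1 cells, 21.2-fold lower (-4.40, SE 0.42, adjusted p = 6.2e-04). Klra2, the gene of Ly49B, another member reported on mouse myeloid cells, read 80.2 and 38.8, against 304 and 741 (-2.76, SE 0.52, adjusted p = 0.0058). Klrb1f read 261 and 161 in leukemic marrow, against 1199 and 883 in Gr1/Mac1 cells (-2.24, SE 0.33, adjusted p = 0.0025). Its further probe set, at 11.3 and 9.37 in leukemic marrow and 135 and 19.0 in Gr1/Mac1 cells, was too dim to test. Ly49 genes are close copies, and whether their probe sets see more than one copy was not tested.

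The other 3 tested Klr genes did not pass. Klrd1, encoding CD94, had a log2 fold change of 0.55, Klrg1 of 0.45 and Klrk1, encoding NKG2D, of -0.67 (adjusted p = 0.33 to 0.48). Of 6 tested NK cell markers none passed (limma, with 1, Gzma, at an unadjusted p under 0.05). The 10 NK cell markers on the array, tested or not, summed to 1965 and 1271 in leukemic marrow, against 1869 and 1577 in Gr1/Mac1 cells. Nkg7 alone gave 1386 and 707 of these sums, against 1547 and 1171. Klra8, singled out after its values were seen, was the one further gene called higher when no filter on low signals was used. It read 26.9 and 84.2 in leukemic marrow and 3.20 and 1.85 in Gr1/Mac1 cells (1.82, SE 0.53, adjusted p = 0.044). No array read above 84.2 for any of the 23 untested genes, and their lack of a call says nothing on whether they differ.

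**Figure D3:**
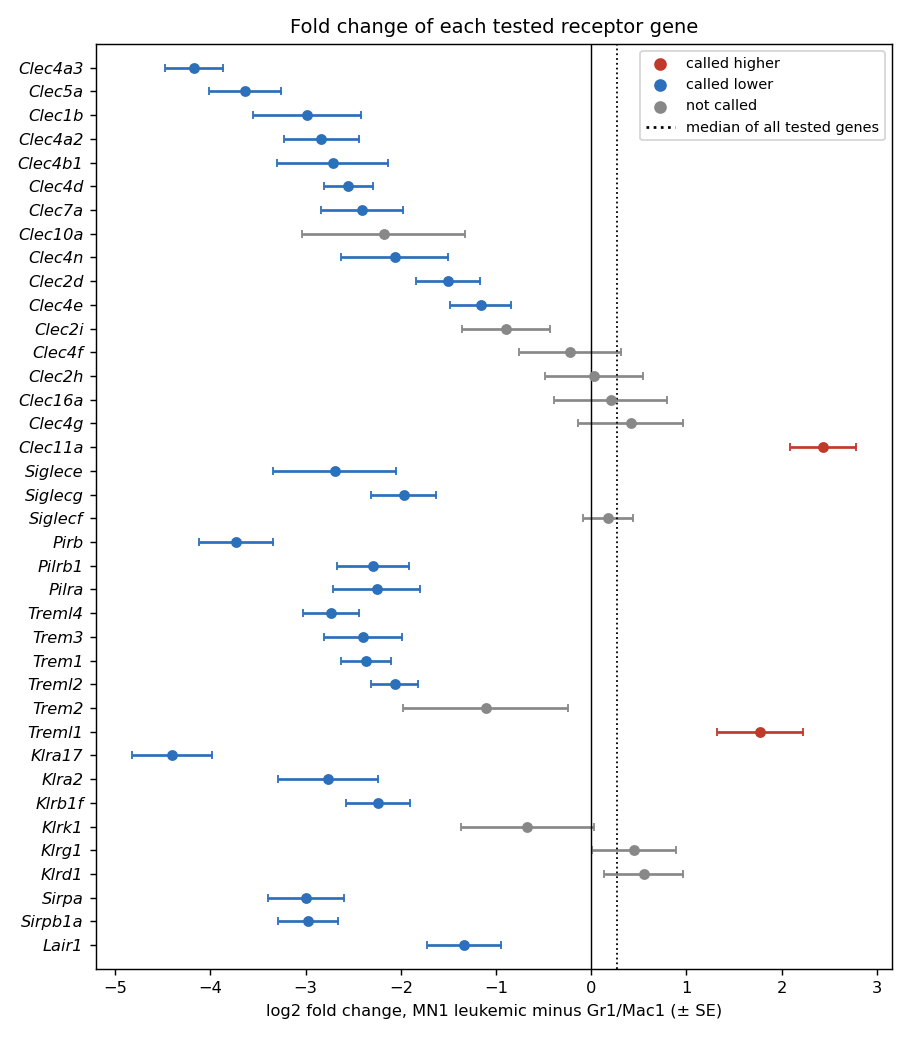
Log2 fold change, MN1 leukemic minus Gr1/Mac1 on the log2(signal + 16) scale, of each of the 38 tested receptor genes by family; bars are the SE of the limma fit with 2 arrays a group, blue marks genes called lower, red called higher and grey not called, and the dotted line is the median of all tested genes at 0.28. The calls run from Klra17 at -4.40 to Clec11a at 2.44.

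The signalling partners of the receptors were read next. Of 4 adaptor genes, 3 were lower and 1 higher. Tyrobp, encoding the DAP12 adaptor of TREM, PILR and SIRP activating receptors, read 11844 and 6257 in leukemic marrow and 43576 and 31533 in Gr1/Mac1 cells (-2.10, SE 0.37, adjusted p = 0.0042). Fcer1g, the adaptor of dectin-2 and Mincle, had a log2 fold change of -2.78 (SE 0.33, adjusted p = 0.0013), and Hcst, encoding DAP10, of -2.02 (SE 0.32, adjusted p = 0.0030). Cd247, the adaptor gene of the T cell receptor and of NK receptors, was dim and higher, at 103 and 230.2 in the leukemic arrays, against 18.6 and 4.70 in the Gr1/Mac1 arrays (2.68, SE 0.61, adjusted p = 0.012). Near the bottom of the scale its value depended on the pseudocount and was 3.88 with 1 and 1.56 with 64, and without leukemic replicate 2 the gene did not pass the filter.

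Below the adaptors, 10 of 19 tested kinases and relay genes were lower and 2 higher, with a median of -1.16 (10 and 1 without leukemic replicate 1, 7 and 1 without leukemic replicate 2). The largest falls had log2 fold changes of -3.53 for the SRC family kinase gene Fgr (SE 0.34), -2.77 for the scaffold gene Lcp2 (SE 0.35), -2.16 for the kinase gene Prkcd (SE 0.31) and -2.10 for the phospholipase gene Plcg2 (SE 0.49). Their adjusted p lay between 6.5e-04 and 0.013, and that of Plcg2 was 0.068 without Gr1/Mac1 replicate 1 (range over alternatives 2.9e-05 to 0.068). Syk, the kinase that binds ITAMs, was named after its values were seen and had -1.73 (SE 0.32, adjusted p = 0.0054). Lat, a scaffold of T cells, mast cells and platelets, was higher by 4.55 (SE 0.49, adjusted p = 8.6e-04). Fyn was higher by 1.82 (SE 0.41, adjusted p = 0.011), a call that ended when leukemic replicate 1 (0.061) or leukemic replicate 2 (0.051) was left out and with scaling to the hybridization controls (0.57, adjusted p = 0.27; range over alternatives 0.0015 to 0.27).

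The genes acting below ITIMs were called in both directions. With scaling to the hybridization controls, under which 6104 of all 12409 tested genes were lower, 4 of the 5 were lower and 0 higher. Without leukemic replicate 1 or leukemic replicate 2 the counts were 1 lower and 0 higher. Ptpn6, encoding the phosphatase SHP-1, had a log2 fold change of -2.26 (SE 0.32, adjusted p = 0.0021), and Csk, a kinase that restrains SRC kinases, of -0.77 (SE 0.22, adjusted p = 0.028). The Csk call was lost without leukemic replicate 1 (-0.68, adjusted p = 0.20) and without leukemic replicate 2 (-0.85, 0.13; range over alternatives 4.2e-04 to 0.20). With no variance trend Csk did not pass either (limma adjusted p = 0.069). Inppl1, a lipid phosphatase gene, was higher with 1.08 (SE 0.33, adjusted p = 0.035). Leaving out leukemic replicate 1 (adjusted p = 0.11), leukemic replicate 2 (0.27) or Gr1/Mac1 replicate 2 (0.064) ended that call. So did no filter (0.075), quantile normalization (0.13) and equal medians (0.16), and scaling to the hybridization controls turned its sign (-0.17, 0.68; range over alternatives 0.021 to 0.68). The other phosphatase genes Ptpn11 (0.13) and Inpp5d (0.07) did not pass (adjusted p = 0.68 and 0.84).

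Ligand genes moved in both directions. Of 21 listed protein ligands 12 had a probe set naming them alone, and 10 were tested. H60c was the only listed ligand gene of NKG2D among those tested. Of the 10, 4 were lower and 3 higher, beside 15.9% lower and 27.5% higher among all tested genes. With scaling to the hybridization controls 6 of 11 protein ligands were lower and 0 higher, and 6104 of all 12409 tested genes were lower. Without leukemic replicate 1 the counts were 3 and 1, without leukemic replicate 2 or Gr1/Mac1 replicate 1 they were 2 and 2. Pglyrp1, a granule protein that binds TREM-1, had a log2 fold change of -2.98 (SE 0.42), and Apoe, a ligand of TREM-2, of -2.94 (SE 0.40), with adjusted p of 0.0021 and 0.0018. Pdpn, the CLEC-2 ligand (-2.01, SE 0.50, adjusted p = 0.017), and Cd99 (-1.07, SE 0.30, adjusted p = 0.026) were lower in weaker calls. The Pdpn call was lost without leukemic replicate 2 (adjusted p = 0.096), Gr1/Mac1 replicate 1 (0.059) or Gr1/Mac1 replicate 2 (0.065; range over alternatives 0.0017 to 0.096). That of Cd99 ended on leaving out leukemic replicate 1 (0.086), leukemic replicate 2 (0.14) or Gr1/Mac1 replicate 1 (0.052; range 8.0e-04 to 0.14). With no variance trend Cd99 did not pass either (limma adjusted p = 0.059). The NKG2D ligand gene H60c (3.11, SE 0.77, adjusted p = 0.016), the KLRG1 ligand gene Cdh1 (2.08, SE 0.47, adjusted p = 0.012) and the chaperone gene Calr (1.67, SE 0.22, adjusted p = 0.0016) were higher. All 3 of these calls were lost with scaling to the hybridization controls (adjusted p = 0.077, 0.10 and 0.20). The H60c call was also lost without leukemic replicate 1 (0.078) or Gr1/Mac1 replicate 1 (0.051), and that of Cdh1 on leaving out leukemic replicate 1 (0.099) or leukemic replicate 2 (0.075). Their ranges over alternatives were 9.6e-04 to 0.078 for H60c, 0.0073 to 0.10 for Cdh1 and 1.6e-04 to 0.20 for Calr. Cd47, the ligand of SIRPα, read 14141 and 15574 in leukemic marrow and 12859 and 11987 in Gr1/Mac1 cells and did not pass (0.26, SE 0.24, adjusted p = 0.42).

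For the Siglecs the ligand is sialic acid. Over all tested genes 27.5% were called higher and 15.9% lower. Not far from those shares, 7 of 20 tested genes that make, attach or remove sialic acid were higher and 4 lower, with a median of 0.56. Without leukemic replicate 2 only 2 were called higher and 3 lower. Cmah, the hydroxylase that turns acetyl into glycolyl sialic acid, was lower, at 141 and 281 in leukemic marrow and 1931 and 2857 in Gr1/Mac1 cells (-3.45, SE 0.38, adjusted p = 9.3e-04). Averaged over its kept probe sets the Cmah value was smaller, -1.67 (adjusted p = 0.019). St3gal5 (-2.07, SE 0.21) and the sialidase gene Neu1 (-1.96, SE 0.36) were lower too, with adjusted p of 7.9e-04 and 0.0049. St8sia4 had -1.33 (SE 0.39, adjusted p = 0.030), which was lost without leukemic replicate 2 (-0.95, adjusted p = 0.15) or Gr1/Mac1 replicate 2 (-0.88, 0.11; range over alternatives 0.0015 to 0.15). The St8sia4 call was also lost with quantile normalization (-1.16, limma adjusted p = 0.066) and with no variance trend (0.068). The sialidase gene Neu3 (2.92, SE 0.61) and the sialyltransferase genes St6galnac3 (2.59, SE 0.54), St3gal3 (1.96, SE 0.34) and St6gal1 (1.95, SE 0.44) were higher, with adjusted p between 0.0041 and 0.011. The Neu3 value was 4.19 with a pseudocount of 1 and 1.70 with 64. With scaling to the hybridization controls the calls of St6galnac3 (adjusted p = 0.050), St3gal3 (0.12) and St6gal1 (0.23) were lost. Of the 20 tested genes 8 were then lower and 1 higher, beside 6104 of all 12409 tested genes lower and 1029 higher. When leukemic replicate 2 was left out, St6galnac3 (adjusted p = 0.10) and St6gal1 (0.063) did not pass either. Over all alternatives it ranged from 0.0013 to 0.10 for St6galnac3, from 4.6e-04 to 0.12 for St3gal3 and from 9.6e-04 to 0.23 for St6gal1.

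**Figure D4:**
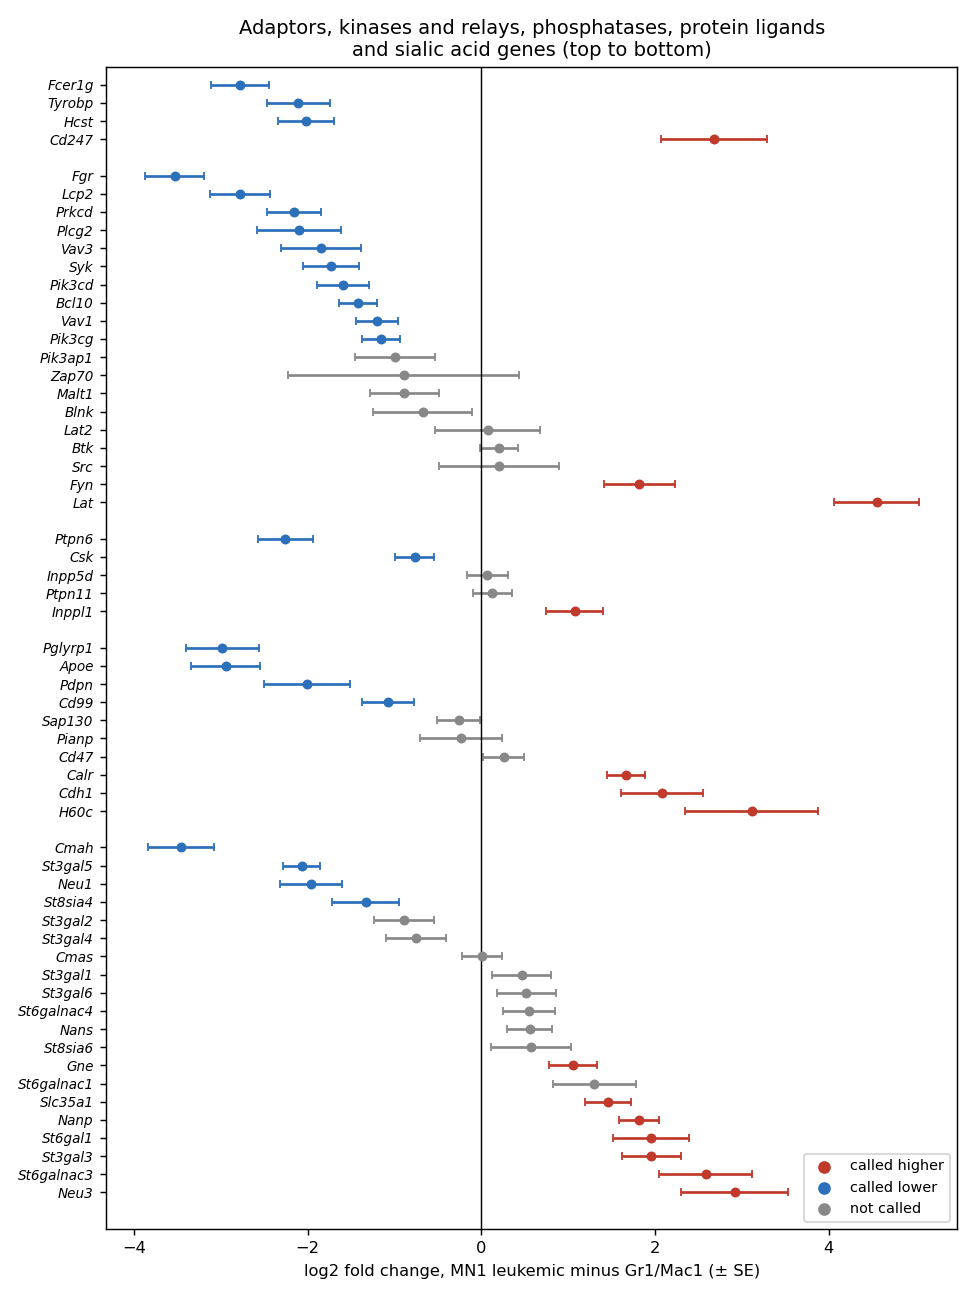
Log2 fold change, MN1 leukemic minus Gr1/Mac1 on the log2(signal + 16) scale, of tested signalling and ligand genes, in blocks from top to bottom: adaptors, kinases and relays, ITIM phosphatases with Csk, protein ligands, and sialic acid genes; bars are the SE of the limma fit with 2 arrays a group, and colours give the call. Adaptors and kinases lie mostly below 0, with Cd247, Fyn and Lat called higher, and the sialic acid genes lie on both sides.

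Markers of the cells that carry these receptors differed between the groups as well. All 7 tested monocyte markers were lower, and their summed signal was 8742 and 7104 in the leukemic arrays, against 54744 and 34068 in the Gr1/Mac1 arrays. Of 9 tested macrophage markers 5 were lower and 2 higher, with sums of 5926 and 4095 against 28094 and 19503, leukemic arrays first. The counts were 2 lower and 0 higher without leukemic replicate 2, 4 lower and 1 higher without leukemic replicate 1, and 3 lower and 2 higher without Gr1/Mac1 replicate 2. With scaling to the hybridization controls 7 were lower and 0 higher, beside 6104 of all 12409 tested genes lower and 1029 higher. Of 10 neutrophil markers 4 were lower (Mmp8, Mmp9, Cxcr2 and Csf3r), while the granule and calgranulin genes S100a8, S100a9, Ltf, Camp, Ngp and Lcn2 did not pass. That split depended on the scaling, since 9 of the 10 were lower with scaling to the hybridization controls, beside 6104 of all 12409 tested genes. The neutrophil sums were 455354 and 262189 in leukemic marrow, against 454151 and 357335 in Gr1/Mac1 cells. All 7 tested stem and progenitor markers were higher, with sums of 37349 and 44378.5 in leukemic marrow, against 1030.1 and 1341 in Gr1/Mac1 cells. The stem and progenitor list shares Gata2 with the basophil and mast cell list and Flt3 with the conventional dendritic cell list, and both genes were called higher. The log2 fold change of Gata2, 5.95, is also the median of both lists that hold it. All 5 tested basophil and mast cell markers were higher, with sums of 53254 and 64841, against 558 and 395. That count was 4 without leukemic replicate 2 and 4 without Gr1/Mac1 replicate 2. Of 5 conventional dendritic cell markers 3 were lower and 2 higher (1 and 1 without leukemic replicate 2, 2 and 1 without Gr1/Mac1 replicate 2). The 6 plasmacytoid dendritic cell markers on the array, tested or not, summed to 2340 and 3462 in leukemic marrow, against 6102 and 1762 in Gr1/Mac1 cells. Of the 4 tested ones 1 was lower and 1 higher. The lower call there was lost without either leukemic array. Of 3 T cell markers 1 was lower and 1 higher. The lowest signal of a listed marker was 1.71, in the T cell list. No detection calls were at hand, so such dim signals do not show that a cell type was present. The part of these differences in cell content in the receptor values was not tested.

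The leukemic replicates also differed in the receptors. Leukemic replicate 1 read above leukemic replicate 2 in 23 of the 25 genes called lower (92.0%), with a median log2 difference of 0.87, replicate 1 minus replicate 2. Over all tested genes that share was 49.4% and the median -0.01. In the 10 neutrophil markers leukemic replicate 1 was above leukemic replicate 2 in 10, with a median of 0.96. The exceptions among the 25 were Clec4e and Clec4n. Gr1/Mac1 replicate 1 read above Gr1/Mac1 replicate 2 in 14 of the same 25 genes (median 0.04) and in 9 of the 10 neutrophil markers (median 0.37). Without leukemic replicate 1 the receptors' median was -2.57 and 23 were called lower, and without leukemic replicate 2 the median was -1.72 and 23 were called lower.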

How the data were processed

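Total RNA from mouse bone marrow, 2 MN1 leukemic and 2 Gr1/Mac1 samples, was read on single-colour arrays. The authors deposited linear MAS5 intensities, made in GCOS 1.3.0 (per the submitters' processing notes). Sources used here give neither scale target nor detection calls, and dim MAS5 signals are noisy. The table held 45101 probe sets, of which 64 controls were left out. Symbols are those of an older platform annotation. 34945 probe sets named 1 gene and 932 several.

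Without further scaling, 16 was added to each signal before log2. The dimmest 40% of probe sets by mean were left out (lowest kept mean 47.6), and 1 probe set a gene gave 12378 genes. The test was limma 3.58.1 under R 4.3.3 (lmFit, eBayes with a variance trend, two-sided, Benjamini-Hochberg over all genes, threshold 0.05; 2 residual degrees of freedom, 6.9 after moderation, median SE 0.33). Simulated data held 12378 genes, of which 200 were changed. A log2 change of 1 was recovered in 2 of 68 genes, of 2 in 33 of 66 and of 4 in 59 of 66. There 9 unchanged genes were called. In the data 5375 genes were called, and the Benjamini-Hochberg adjustment is stricter where fewer genes change. Those recovery rates therefore need not hold for the data. No call still says little about small changes. Precision is limited by having 2 arrays a group. Nothing in the labels says more of the replicates than that they are biological, and with 2 arrays a group an exact permutation test can give no p below 0.33. Members, lists and alternatives were chosen with earlier results of these data known. Named genes followed a rule: in each symbol family per-array signals for up to 8 called members in each direction, and in each pathway list up to 4 called genes in each direction. Syk and the uncalled Cd47, Ptpn11 and Inpp5d were named outside that rule. Promoter windows and gene order came from RefSeq (GRCm38.p6), in which 61 of 61 members were found by gene ID. Plots used matplotlib 3.10.9 (Python 3.11.15).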

Additional observations from a re-analysis of the deposited data

How the results depend on the processing

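The 15 alternatives set out at the start were pseudocounts of 1 and 64, no filter, the lowest 60% left out, quantile normalization, equal medians, scaling to hybridization controls, the mean of probe sets, no multi-transcript probe sets, no variance trend, a replicate block and each array left out. Testing each probe set was added after the data were seen. Of 591 values of the 38 receptors under these, 569 kept their direction where called and their side of the threshold, 16 lost and 5 gained a call, and 1, Siglecf, reversed to a called -1.12 under the hybridization controls. Of 436 values of the named pathway genes 36 lost their call and 1, Inppl1, reversed (-0.17). The count of receptors called lower ran from 21 to 28. The count called higher was 1 under the hybridization controls and 1 to 2 with an array left out. The median, -2.21, was -0.62 with no filter, -1.87 with a pseudocount of 64 and -3.37 under the hybridization controls. With an array left out it lay between -2.57 and -1.72, and the genes changed over the whole table, 5375 of 12378, between 2812 and 5499. Higher genes were 63.3% of changed genes, but 49.4% with equal medians and 14.4% under the hybridization controls. With the replicate block 26 receptors were lower, 2 higher and 5562 genes changed. The labels do not pair equal numbers, and the deviations of equally numbered arrays correlated at -0.03 across genes. Leaving an array out left 1 in its group, whose spread was then taken from the other group alone. The causes of these changes were not tested. Dim genes (the 23 untested receptors) are limited by signal near background.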
